A study of Mus musculus with 12 samples.

Results

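Chemokines and their receptors were followed in whole jejunum of mice with loss of RAB11A, RAB11B or both. The family was taken as every gene of the deposited table whose symbol is that of a CC, CXC or XC chemokine, of one of their receptors or of an atypical chemokine receptor, together with Xcl1, Cx3cl1 and Cx3cr1. This gave 61 members of 23988 genes in the table: 39 ligands, 18 signalling receptors and 4 atypical receptors. The rule used symbols only and no measured value.

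The 4 groups held 3 libraries each. DKO mice were Rab11aL/L, Rab11b-/- and VillinCreER+, so that a floxed Rab11a was cut by a tamoxifen-inducible Cre under the villin promoter, which is active in intestinal epithelium, in mice without Rab11b in any tissue. BKO mice were Rab11b-/- and AKO mice were Rab11aL/L and VillinCreER+, while WT is given without further alleles. Mice of all 4 groups were adults that received tamoxifen at 40 mg/kg, and the tissue was taken after 2 days. The labels do not say whether WT or BKO mice carried a floxed allele or the Cre, and they do not say that the 3 libraries of a group came from separate animals. The p-values therefore measure the spread between these libraries.

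Chemokines are small secreted proteins that steer migrating cells. Most act through G protein-coupled receptors on leukocytes, and atypical receptors bind the same ligands and remove or carry them without starting G protein signals. In the small intestine the epithelium makes some of them constantly, such as Ccl25, which draws gut-homing lymphocytes, while others are made by stroma, endothelium and immune cells during inflammation.

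Values are the authors' fragment counts divided by a size factor per library, a scale the authors call fpm. They are not corrected for gene length, so levels are compared between libraries and not between genes. The value of 1 read was 0.0313 to 0.0563 fpm, at 19.2 M to 29.8 M reads per library. Log2 changes are differences of log2(value + 1), which understates the change of genes near 1 fpm. Each is given with its standard error (SE) and an adjusted p from limma, fitted to all 12 libraries and adjusted over all 13675 genes tested. A gene was tested when it reached 1 fpm in at least 3 libraries, and called when its adjusted p was under 0.05. By this filter 39 members were tested, made up of 24 ligands, 11 receptors and 4 atypical receptors, and 22 were not. Because the RNA is from whole tissue, fewer cells of a type and less RNA per cell cannot be told apart.

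The targeted genes were lower in the groups that carry their alleles, but Rab11a was less reduced in DKO than in AKO. Rab11a averaged 106 ± 8.48 fpm in DKO, 230.0 ± 39.7 fpm in BKO, 59.4 ± 9.43 fpm in AKO and 186 ± 3.87 fpm in WT (SD, n = 3 each), and Rab11b averaged 22.9 ± 1.55 fpm in DKO, 27.04 ± 4.23 fpm in BKO, 112 ± 6.67 fpm in AKO and 116 ± 5.07 fpm in WT. The log2 change of Rab11a was -0.81 (SE 0.15, adjusted p = 0.00284) in DKO against WT and -1.64 (SE 0.15, adjusted p = 0.00361) in AKO against WT, and between DKO and AKO the log2 change was 0.83 (SE 0.15, adjusted p = 0.00254). Some libraries stood apart from the rest of their groups. In the third BKO library the 12 T-cell markers summed to 10.9 fpm, against 247 and 316 fpm in the other BKO libraries, and 16 of the 39 tested members lay more than 1 log2 unit from the mean of the other BKO libraries, 13 of them below it, as did 20.01% of all genes tested. In the second WT library the 7 B-cell markers summed to 506 fpm, against 24.0 and 21.3 fpm in the other WT libraries. There 6 lymphoid-follicle markers, some of which B cells also carry, such as Cr2, summed to 137 fpm, against 12.5 and 11.7 fpm. In the first DKO library 8 of the 39 tested members lay over 1 log2 unit from the mean of the other DKO libraries. Of these members 7 lay below that mean, and 2.11% of all genes tested lay as far from it. Its platelet markers summed to 260 fpm, against 43.1 and 28.6 fpm in the other DKO libraries. Its red-cell markers summed to 108 fpm, against 13.1 and 14.6 fpm. Markers of the epithelium were present in every library, and those of absorptive enterocytes summed to 4395 to 5699.9 fpm in DKO, 14459 to 27030.4 fpm in BKO, 15071 to 27315 fpm in AKO and 18865 to 21643 fpm in WT.

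In DKO against WT, 16 of the 39 tested members were called, 10 higher and 6 lower. This is 41.0% of them, against 31.8% of all genes tested, where 14.6% were higher and 17.2% lower. On the recovered reads edgeR called 20 of the 48 members it tested, beside 28% of all genes it tested. DESeq2 called 24 of the 49 members with an adjusted p, beside 33.1% of all genes with one. The median log2 change was 0.02 over the members and -0.01 over all genes tested, and the median over the members moved to 0.37 without the second WT library and to -0.20 without the third DKO library. By role, 6 ligands were higher and 3 lower, 2 receptors were higher and 3 lower, and 2 of the 4 atypical receptors were higher. The members higher in DKO were Cxcl16, Cxcl14, Cxcl1, Ccl11, Ccl8, Ccl7, Ccr1, Ccr2, Ackr1 and Ackr3, and those lower were Ccl25, Cx3cl1, Xcl1, Cxcr6, Ccr10 and Xcr1. Cxcl1 and Ccl7 reached 1 fpm in DKO libraries alone, so in every comparison they were tested only through the group where they are high. In AKO against WT and in BKO against WT, limma called 0 members, beside 0.00731% and 0.0439% of all genes tested.

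**Figure D1:**
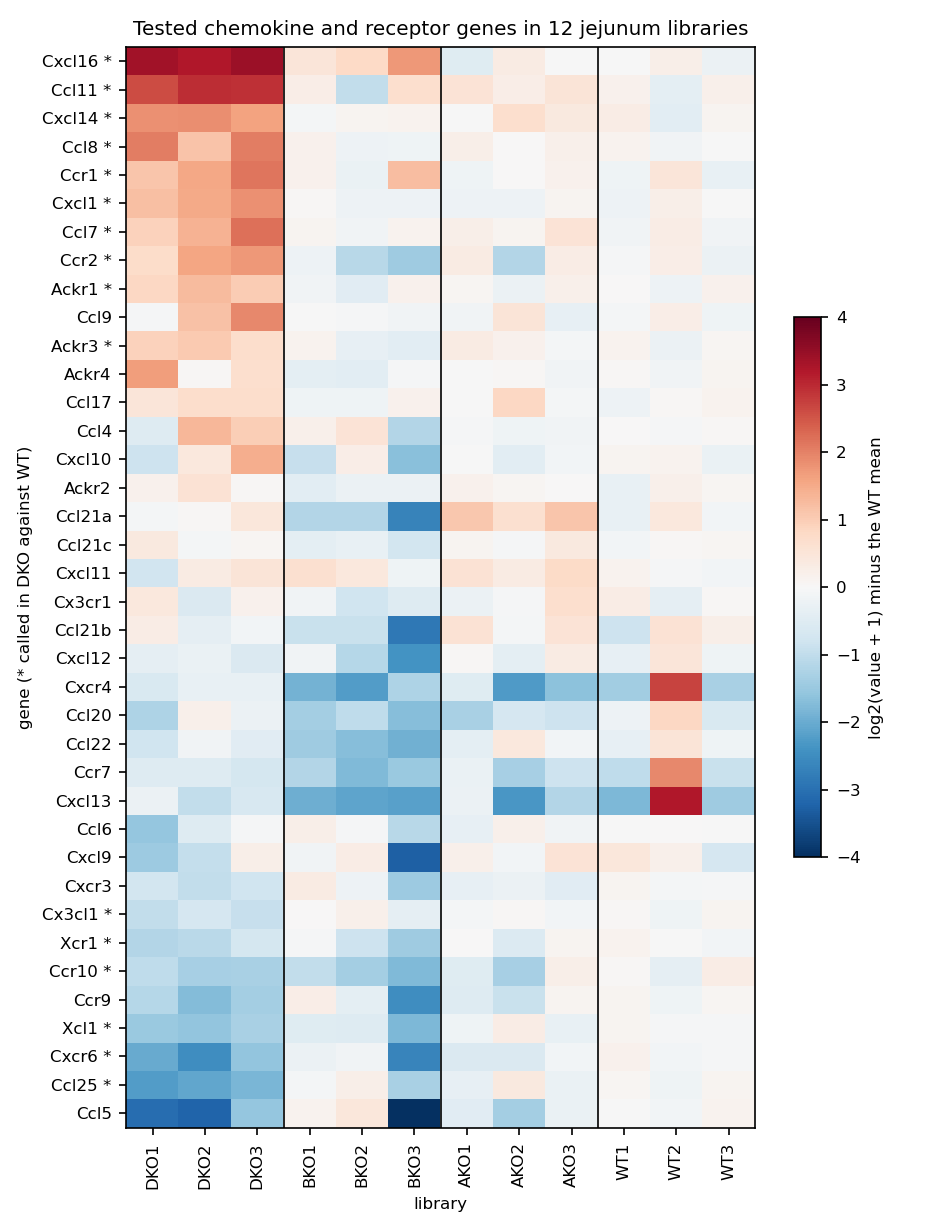
Colour gives log2(value + 1) minus the WT mean for 38 of the 39 tested members (rows, ordered by the change in DKO against WT, called members starred) in the 12 libraries (columns); colours stop at -4 and 4. The 3 DKO columns share a block of high values from Cxcl16 to Ccr2 and a block of low values from Cx3cl1 to Ccl5, while single dark cells mark the third BKO and the second WT library.

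Cxcl16, a chemokine made as a membrane protein and shed as a soluble attractant of Cxcr6-bearing lymphocytes, had the largest log2(value + 1) change of any tested member in DKO against WT. As a ratio of means, Ccl7 and Cxcl1, both near 0 in WT, changed more, at 19.6 and 14.1. Cxcl16 stood at 183, 164 and 193 fpm in DKO libraries, against 24.2, 30.5 and 59.4 fpm in BKO, 11.8, 21.7 and 16.8 fpm in AKO and 16.96, 20.1 and 14.5 fpm in WT. Each DKO library was far above every other library, the next highest being the third BKO library. The mean ratio of DKO to WT was 10.5, and the log2 change was 3.32 (SE 0.30, adjusted p = 0.000124). Against BKO the log2 change was 2.31 (SE 0.30, adjusted p = 0.000988), and against AKO it was 3.38 (SE 0.30, adjusted p = 0.000128). In BKO against WT the log2 change of Cxcl16 was 1.01 (SE 0.30, adjusted p = 0.348), which limma did not call, whereas DESeq2 on the recovered reads gave an adjusted p of 0.0395.

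Cxcl14, a chemokine that epithelia and stroma make at rest, stood at 29.9, 30.2 and 25.2 fpm in DKO libraries, against 7.14, 8.33 and 8.55 fpm in BKO, 7.57, 12.7 and 10.2 fpm in AKO and 9.62, 5.49 and 8.37 fpm in WT. All 3 DKO libraries lay above the other 9. Its log2 change was 1.76 (SE 0.22, adjusted p = 0.000539) against WT, 1.71 (SE 0.22, adjusted p = 0.000932) against BKO and 1.42 (SE 0.22, adjusted p = 0.00136) against AKO.

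Ccl25, the epithelial ligand of Ccr9, moved the other way, at 96.1, 105 and 126 fpm in DKO libraries, against 428, 535 and 185 fpm in BKO, 359.8, 588 and 376 fpm in AKO and 478, 399.7 and 483 fpm in WT. The DKO libraries were the lowest of the 12, and the third BKO library came next. The DKO mean was 0.240 of the WT mean, and the log2 change was -2.05 (SE 0.34, adjusted p = 0.00186) against WT, -1.68 (SE 0.34, adjusted p = 0.00662) against BKO and -1.98 (SE 0.34, adjusted p = 0.00215) against AKO. The fall in Ccl25 stood beside a fall in the enterocyte markers, of which 5 of 7 tested were called lower in DKO against WT and none higher. Its part in the result was not tested.

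Cx3cl1, or fractalkine, is a membrane-tethered chemokine whose receptor Cx3cr1 marks gut macrophages. It stood at 42.6, 53.5 and 45.3 fpm in DKO libraries, against 86.6, 99.8 and 67.4 fpm in BKO, 81.9, 89.6 and 80.2 fpm in AKO and 88.3, 77.1 and 93.7 fpm in WT. Again no DKO library reached any other library. The log2 change was -0.86 (SE 0.15, adjusted p = 0.00244) against WT, -0.82 (SE 0.15, adjusted p = 0.00475) against BKO and -0.82 (SE 0.15, adjusted p = 0.00297) against AKO. Its receptor Cx3cr1, at 10.1, 4.62 and 8.42 fpm in DKO libraries, against 6.54, 3.77 and 4.81 fpm in BKO, 6.13, 7.003 and 12.3 fpm in AKO and 9.25, 5.56 and 7.65 fpm in WT, overlapped between all groups, with a log2 change of 0.00 (SE 0.32, adjusted p = 0.993) in DKO against WT.

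The start regions of Cx3cl1 and Ccl25 are shown because these genes were lower in DKO. They are 300-base windows from RefSeq on GRCm38.p6, running from 250 bases before to 50 bases after an annotated start, and they were found for 45 of the 61 members, in 52 windows. Capitals mark a match, on either strand, to the letters of a TATA box (TATAAA), which 13.62% of all 32851 windows and 14 of the 52 member windows hold. The letters of an AP-1 site (TGANTCA) were searched too. They lay in 7.808% of all windows and 9 of the 52 member windows, and in none of those printed. The windows lie on the plus strand, that of Cx3cl1 at chr8:94771930-94772229 and those of Ccl25 at chr8:4324960-4325259 and chr8:4349338-4349637. Ccl25 has 2 annotated starts, and only the window of the second holds these letters.
Cx3cl1: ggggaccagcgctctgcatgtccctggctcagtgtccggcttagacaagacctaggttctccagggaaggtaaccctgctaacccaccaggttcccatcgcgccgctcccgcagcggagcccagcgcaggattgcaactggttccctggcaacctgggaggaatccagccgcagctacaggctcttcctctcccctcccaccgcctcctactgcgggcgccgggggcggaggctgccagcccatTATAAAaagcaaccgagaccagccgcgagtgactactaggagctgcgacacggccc
Ccl25, first start: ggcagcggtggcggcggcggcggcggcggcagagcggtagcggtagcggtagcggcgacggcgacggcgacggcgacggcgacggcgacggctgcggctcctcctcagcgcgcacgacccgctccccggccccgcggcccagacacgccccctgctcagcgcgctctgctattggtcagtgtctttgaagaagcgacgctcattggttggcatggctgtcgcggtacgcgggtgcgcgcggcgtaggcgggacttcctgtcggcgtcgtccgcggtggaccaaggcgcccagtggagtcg
Ccl25, second start: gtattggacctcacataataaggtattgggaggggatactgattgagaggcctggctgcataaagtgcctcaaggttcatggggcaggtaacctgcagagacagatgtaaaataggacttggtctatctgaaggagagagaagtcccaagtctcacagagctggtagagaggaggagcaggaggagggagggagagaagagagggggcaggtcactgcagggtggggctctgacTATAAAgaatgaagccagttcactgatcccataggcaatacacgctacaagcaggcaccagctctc
The Cx3cl1 match is at bases 245 to 250 of its window. The match in the second Ccl25 window is at bases 235 to 240. Their first bases lie at -6 and -16 from the annotated start. Whether these letters act as a TATA box was not tested.

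**Figure D2:**
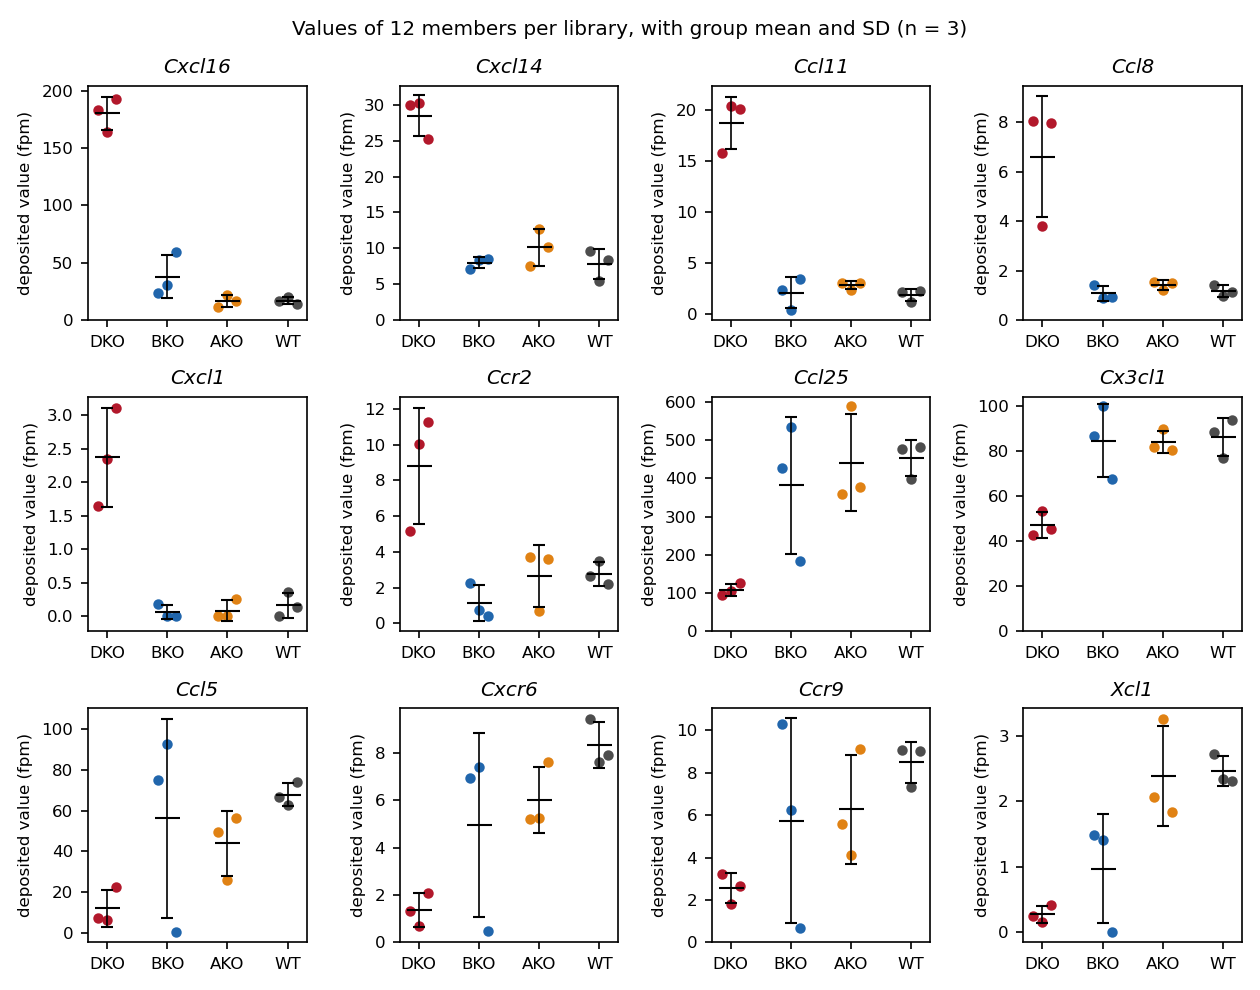
Each panel gives 1 gene, with the deposited value in fpm of each library as a point and the group mean and SD (n = 3) as bars, for DKO, BKO, AKO and WT from left to right. Cxcl16, Cxcl14, Ccl11, Ccl8, Cxcl1 and Ccr2 are high in every DKO library, Ccl25 and Cx3cl1 are low in every DKO library, and Ccl5, Cxcr6, Ccr9 and Xcl1 are also low in the third BKO library.

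Ccl6 and Ccl9 are mouse CC chemokines that act on Ccr1. Ccl6 stood at 60.3, 125 and 171 fpm in DKO libraries, against 207, 171 and 81.9 fpm in BKO, 142, 205 and 163 fpm in AKO and 177, 180.2 and 175 fpm in WT. The DKO libraries spread widely among themselves and all lay below the WT libraries, and the log2 change against WT was -0.70 (SE 0.38, adjusted p = 0.186). Ccl9 stood at 16.3, 39.3 and 66.5 fpm in DKO libraries, against 16.8, 16.3 and 15.2 fpm in BKO, 15.3, 24.3 and 13.3 fpm in AKO and 15.9, 20.5 and 14.7 fpm in WT. Its first DKO library lay inside the WT range and the others above it. The log2 change of Ccl9 was 1.02 (SE 0.40, adjusted p = 0.0746) against WT, and it was called by edgeR (adjusted p = 0.0389) and by DESeq2 (adjusted p = 0.0106). Ccl20, which draws Ccr6-bearing cells to the epithelium over lymphoid follicles, ranged from 1.16 to 4.85 fpm in DKO, 0.550 to 1.52 fpm in BKO, 1.06 to 2.18 fpm in AKO and 2.28 to 8.01 fpm in WT. Neither limma nor edgeR called Ccl20 in any comparison, and DESeq2 called it in BKO against WT (adjusted p = 0.0405), in DKO against BKO (adjusted p = 0.0428) and in the interaction of both losses (adjusted p = 0.00925). Ccl28, a further epithelial chemokine, had 0 reads in all 12 libraries.

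Ccl7, Ccl8 and Ccl11 were called higher in DKO. Ccl2, Ccl7, Ccl11, Ccl12, Ccl8 and Ccl1 are consecutive protein-coding genes on chromosome 11 in the RefSeq order, and no other of them passed the filter. Ccl11, or eotaxin, the main attractant of eosinophils through Ccr3, stood at 15.8, 20.3 and 20.1 fpm in DKO libraries, against 2.37, 0.394 and 3.45 fpm in BKO, 3.07, 2.33 and 2.98 fpm in AKO and 2.12, 1.13 and 2.21 fpm in WT. The lowest DKO library was far above the highest of the rest. The log2 change of the gene was 2.82 (SE 0.36, adjusted p = 0.000653) against WT, 2.83 (SE 0.36, adjusted p = 0.000971) against BKO and 2.37 (SE 0.36, adjusted p = 0.00136) against AKO.

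Ccl8, a monocyte chemoattractant that in the mouse acts on Ccr8, stood at 8.05, 3.79 and 7.96 fpm in DKO libraries, against 1.44, 0.901 and 0.954 fpm in BKO, 1.56, 1.21 and 1.49 fpm in AKO and 1.43, 0.987 and 1.14 fpm in WT. The groups did not overlap, with the second DKO library the lowest of its group. The log2 change was 1.74 (SE 0.24, adjusted p = 0.000908) against WT, 1.81 (SE 0.24, adjusted p = 0.00120) against BKO and 1.59 (SE 0.24, adjusted p = 0.00136) against AKO. Ccl7, a ligand of Ccr2 among other receptors, stood at 1.12, 1.89 and 4.16 fpm in DKO libraries, against 0.186, 0 and 0.220 fpm in BKO, 0.313, 0.195 and 0.614 fpm in AKO and 0, 0.366 and 0 fpm in WT. Again every DKO library was above the other 9. Ccl7 passed the filter through its DKO libraries alone. Its log2 change was 1.51 (SE 0.29, adjusted p = 0.00395) against WT, 1.48 (SE 0.29, adjusted p = 0.00632) against BKO and 1.21 (SE 0.29, adjusted p = 0.0107) against AKO, and in the last comparison edgeR gave an adjusted p of 0.0732 and DESeq2 one of 0.0579.

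Below the filter, Ccl2, the classical monocyte chemoattractant, stood at 0.970, 2.801 and 4.71 fpm in DKO libraries, against 0.325, 0.169 and 0.257 fpm in BKO, 0.250, 0.428 and 0.702 fpm in AKO and 0.245, 0.805 and 0 fpm in WT. It was highest in the second and the third DKO libraries, and DESeq2 called it higher in DKO against WT (adjusted p = 0.00738). Ccl12 stayed at or under 0.640 fpm in every library, and Ccl1 had reads in the second DKO library alone. Ccl24, another eotaxin, stood at 0.533, 0.379 and 1.05 fpm in DKO libraries and at or under 0.188 fpm in the other 9. The window of Ccl8, at chr11:82114935-82115234 on the plus strand, holds the letters TATAAA at bases 219 to 224 (capitals). The first of them lies at -32 from the annotated start. Of the other members called higher in every DKO comparison, Ackr3 also holds these letters in its window. The windows of Cxcl1, Cxcl14, Ackr1, Ccr1 and Ccr2 do not.
Ccl8: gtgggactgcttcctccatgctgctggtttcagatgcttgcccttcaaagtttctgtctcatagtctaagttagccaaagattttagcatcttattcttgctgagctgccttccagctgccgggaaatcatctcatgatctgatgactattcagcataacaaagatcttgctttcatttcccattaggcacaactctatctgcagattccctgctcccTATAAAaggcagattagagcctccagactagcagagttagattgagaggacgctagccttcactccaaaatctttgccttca

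Ccr1, Ccr3 and Ccr2 lie close together on chromosome 9. Ccr2, the receptor of inflammatory monocytes, stood at 5.14, 10.03 and 11.3 fpm in DKO libraries, against 2.27, 0.732 and 0.404 fpm in BKO, 3.69, 0.661 and 3.596 fpm in AKO and 2.65, 3.47 and 2.18 fpm in WT. All DKO libraries lay above the others, and the first was the lowest of the 3. The log2 change was 1.33 (SE 0.45, adjusted p = 0.0421) against WT, 2.24 (SE 0.45, adjusted p = 0.00656) against BKO and 1.51 (SE 0.45, adjusted p = 0.0254) against AKO. The call against WT was lost without any of the 3 WT libraries, without the second or the third DKO library, with a replicate block, with no filter, at a pseudocount of 0.1 and with edgeR, where adjusted p ran up to 0.127. Against AKO it was lost without the second AKO, the second DKO or the third DKO library, at a pseudocount of 0.1 and with edgeR, with an adjusted p of up to 0.0917.

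Ccr1, a receptor of monocytes and neutrophils for Ccl6, Ccl9 and other CC chemokines, stood at 11.4, 15.6 and 24.1 fpm in DKO libraries, against 5.38, 3.77 and 12.5 fpm in BKO, 4.100, 4.82 and 5.44 fpm in AKO and 4.08, 6.95 and 3.599 fpm in WT. The third BKO library reached the level of the DKO libraries, and the other 8 did not. The log2 change of the gene was 1.60 (SE 0.38, adjusted p = 0.0102) against WT and 1.58 (SE 0.38, adjusted p = 0.0105) against AKO, and 1.22 (SE 0.38, adjusted p = 0.0412) against BKO. The last call held when 3 of the 12 libraries were left out in turn and was lost for the others, without the first or second BKO, the second or the third DKO, the first or the third WT or any AKO library, with an adjusted p of up to 0.141, and it was also lost with no filter, with edgeR and with only the groups compared, with one of up to 0.136. Ccr3, the eotaxin receptor, did not pass the filter and stood at 0.776, 1.06 and 1.33 fpm in DKO libraries and at or under 0.402 fpm in the other 9.

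Macrophage markers were higher in DKO as well, though not library by library with these genes. The third BKO library had the highest macrophage sum of its group and the lowest Ccr2 value of all 12 libraries. Of 10 tested, 5 were called higher in DKO against WT and none lower, and the 10 summed to 517 to 765 fpm in DKO, 109 to 324 fpm in BKO, 206 to 236 fpm in AKO and 235 to 489 fpm in WT. The 6 fibroblast markers were all called higher and summed to 714 to 1149.6 fpm in DKO, 276 to 395 fpm in BKO, 292 to 421 fpm in AKO and 223 to 319.5 fpm in WT. Among 8 eosinophil and mast-cell markers, 3 were tested, and the mast-cell proteases Cma1 and Mcpt1 were called higher. Epx, eosinophil peroxidase, had 0 reads in all 12 libraries. The part of these cells in the chemokine changes was not tested.

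Ligands of the neutrophil receptor Cxcr2 were near 0 outside DKO. Cxcl1 stood at 1.65, 2.35 and 3.11 fpm in DKO libraries, against 0.186, 0 and 0 fpm in BKO, 0, 0 and 0.263 fpm in AKO and 0, 0.366 and 0.138 fpm in WT. Every DKO library lay above all others, which held between 0 and 10 reads each. Cxcl1 passed the filter through its DKO libraries alone. The log2 change was 1.52 (SE 0.20, adjusted p = 0.000801) against WT, 1.65 (SE 0.20, adjusted p = 0.000875) against BKO and 1.62 (SE 0.20, adjusted p = 0.000593) against AKO.

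Cxcl2, Cxcl3 and Cxcl5, its neighbours on chromosome 5, did not pass the filter. Cxcl2 stood at 0.145, 3.29 and 3.71 fpm in DKO libraries, against 0 fpm in BKO, 0, 0.156 and 0 fpm in AKO and 0, 0.146 and 0 fpm in WT. Cxcl3 stood at 0, 1.17 and 2.24 fpm in DKO libraries and was at 0 reads in the other 9. Cxcl5, which in the mouse is made by epithelial cells, stood at 0.921, 3.94 and 9.06 fpm in DKO libraries, against 0.371, 0.225 and 0 fpm in BKO, 0.376, 0 and 0.482 fpm in AKO and 0.367, 0 and 0 fpm in WT. All 3 were at their lowest DKO level in the first DKO library, and the second and the third held most of their reads. DESeq2 called Cxcl2 (adjusted p = 0.0162) and Cxcl5 (adjusted p = 0.00472) higher in DKO against WT, and Cxcl3 had an adjusted p of 0.0895.

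Cxcr2, their receptor on neutrophils, stood at 0.339, 0.757 and 0.686 fpm in DKO libraries, against 0.186, 0.394 and 0.0367 fpm in BKO, 0, 0 and 0.132 fpm in AKO and 0 fpm in WT, with a DESeq2 adjusted p of 0.00168 against WT, and Cxcr1 had 0 reads in all libraries. Neutrophil markers were scarce, with 6 of the listed genes in the table and 1 tested, Csf3r, which was called higher. The 6 summed to 3.98 to 10.6 fpm in DKO, 0.742 to 1.18 fpm in BKO, 0.219 to 0.570 fpm in AKO and 0.489 to 1.17 fpm in WT. Mpo and Elane, enzymes of neutrophil granules, had 0 reads in all 12 libraries, so these sums rest on the other listed genes. The part of neutrophils in these values was not tested.

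**Figure D3:**
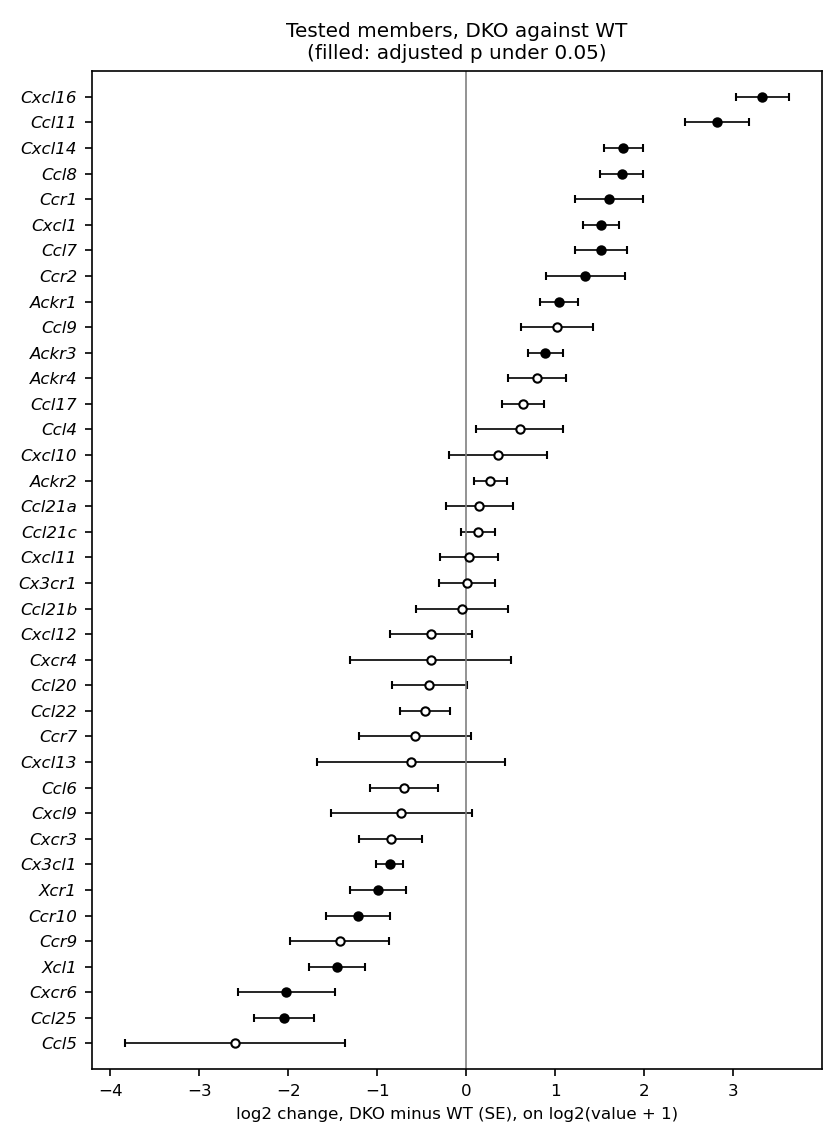
Points give the log2 change of 38 of the 39 tested members in DKO against WT on the log2(value + 1) scale with its SE, and filled points have an adjusted p under 0.05. Filled points run from 3.32 for Cxcl16 to -2.05 for Ccl25, and the longest error bar is that of Ccl5, whose change of -2.60 is not called.

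Several members that lymphocytes carry or answer to were low in DKO. Cxcr6, the receptor for Cxcl16 on tissue-resident T cells and innate lymphocytes, stood at 1.31, 0.681 and 2.104 fpm in DKO libraries, against 6.96, 7.43 and 0.477 fpm in BKO, 5.196, 5.25 and 7.63 fpm in AKO and 9.46, 7.64 and 7.92 fpm in WT. The DKO libraries lay below all WT and AKO libraries, and the third BKO library was lower than all 3. The log2 change was -2.02 (SE 0.55, adjusted p = 0.0183) against WT, -1.60 (SE 0.55, adjusted p = 0.0462) against AKO and -1.01 (SE 0.55, adjusted p = 0.204) against BKO, where DESeq2 gave an adjusted p of 0.0367. The call against WT was lost without the first WT library and without the second DKO library (adjusted p up to 0.0698). The call against AKO held when 3 of the 12 libraries, those of BKO, were left out in turn and was lost for each of the other 9, with an adjusted p of up to 0.144, and with a replicate block, with edgeR, with no filter and at a pseudocount of 0.1, with one of up to 0.0670. Cxcl16 and its receptor Cxcr6 moved in opposite directions in DKO against WT.

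Ccr9, the receptor for Ccl25 on gut-homing lymphocytes, stood at 3.25, 1.82 and 2.65 fpm in DKO libraries, against 10.3, 6.25 and 0.697 fpm in BKO, 5.57, 4.12 and 9.12 fpm in AKO and 9.09, 7.35 and 9.03 fpm in WT. No DKO library reached a WT or an AKO library, and the third BKO library was lower still. Its log2 change against WT was -1.42 (SE 0.56, adjusted p = 0.0735), DESeq2 gave an adjusted p of 0.0313, and by limma the adjusted p without the third BKO library was 0.00151. Ccl5, an attractant stored by cytotoxic T cells, stood at 7.23, 6.47 and 22.6 fpm in DKO libraries, against 75.2, 92.8 and 0.550 fpm in BKO, 49.3, 26.03 and 56.3 fpm in AKO and 66.5, 62.9 and 74.2 fpm in WT. The DKO libraries lay below all WT, all AKO and the first 2 BKO libraries, and the third BKO library was at 0.550 fpm. The log2 change against WT was -2.60 (SE 1.24, adjusted p = 0.129), and the adjusted p was 0.000446 without the third BKO library.

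Xcl1, made by activated CD8 T cells and NK cells, stood at 0.242, 0.151 and 0.412 fpm in DKO libraries, against 1.48, 1.41 and 0 fpm in BKO, 2.07, 3.27 and 1.84 fpm in AKO and 2.73, 2.34 and 2.32 fpm in WT. Its log2 change was -1.45 (SE 0.32, adjusted p = 0.00683) against WT, -1.40 (SE 0.32, adjusted p = 0.00784) against AKO and -0.52 (SE 0.32, adjusted p = 0.252) against BKO. Xcr1, its receptor on cross-presenting dendritic cells, stood at 0.436, 0.530 and 1.01 fpm in DKO libraries, against 2.13, 0.845 and 0.220 fpm in BKO, 2.32, 1.24 and 2.54 fpm in AKO and 2.61, 2.19 and 2.01 fpm in WT. The 3 DKO libraries lay below the 3 WT libraries, with a log2 change of -0.99 (SE 0.31, adjusted p = 0.0341). The Xcr1 call was lost with edgeR, at a pseudocount of 0.1 and without the first or second DKO library or any of the 3 WT libraries, where adjusted p ran up to 0.101.

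Cxcr3 and its ligands, which interferon gamma induces, were not called in any comparison by limma, edgeR or DESeq2. Cxcr3 ranged from 0.681 to 1.02 fpm in DKO, 0.220 to 3.25 fpm in BKO, 1.45 to 1.83 fpm in AKO and 2.16 to 2.65 fpm in WT, with a log2 change of -0.85 (SE 0.35, adjusted p = 0.0897) in DKO against WT and an adjusted p of 0.0027 without the third BKO library. Cxcl9 stood at 2.47, 3.899 and 10.2 fpm in DKO libraries, against 7.699, 10.8 and 0 fpm in BKO, 9.89, 7.86 and 12.98 fpm in AKO and 11.99, 10.1 and 5.05 fpm in WT. Cxcl10 stood at 1.65, 5.300 and 11.98 fpm in DKO libraries, against 1.48, 4.62 and 0.477 fpm in BKO, 3.63, 2.53 and 3.33 fpm in AKO and 4.04, 4.21 and 2.94 fpm in WT. For both, the third DKO library was the highest of its group and the first the lowest, below all WT libraries. The third lay inside the WT range for Cxcl9 and above it for Cxcl10. Cxcl11 stayed at or under 1.93 fpm in every library.

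Ccr10, a receptor of IgA plasma cells, stood at 1.26, 0.833 and 0.869 fpm in DKO libraries, against 1.34, 0.788 and 0.367 fpm in BKO, 2.32, 0.817 and 4.43 fpm in AKO and 3.79, 2.597 and 4.67 fpm in WT. The DKO libraries lay below those of WT and overlapped BKO and AKO. The log2 change of the gene was -1.22 (SE 0.36, adjusted p = 0.0251) against WT, a call lost without the first or the third WT library or the second or the third DKO library, where adjusted p ran up to 0.0875. In BKO against WT Ccr10 had a log2 change of -1.36 (SE 0.36, adjusted p = 0.337). Of 5 plasma-cell markers none was called in DKO against WT, and they summed to 643 to 1088 fpm in DKO, 16.6 to 835 fpm in BKO, 754 to 2030.1 fpm in AKO and 1456 to 1937 fpm in WT.

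T-cell markers were also low in DKO. Of 12, all tested, 6 were called lower in DKO against WT and none higher, and they summed to 28.8 to 68.7 fpm in DKO, 10.9 to 316 fpm in BKO, 178 to 277 fpm in AKO and 299 to 348 fpm in WT. The lowest BKO sum is that of the third library, where Cd3e, named after its values were seen, had 0 reads. Of 5 dendritic-cell markers tested, 1 was higher and 1 lower. The part of lymphocyte numbers in the chemokine and receptor values was not tested.

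**Figure D4:**
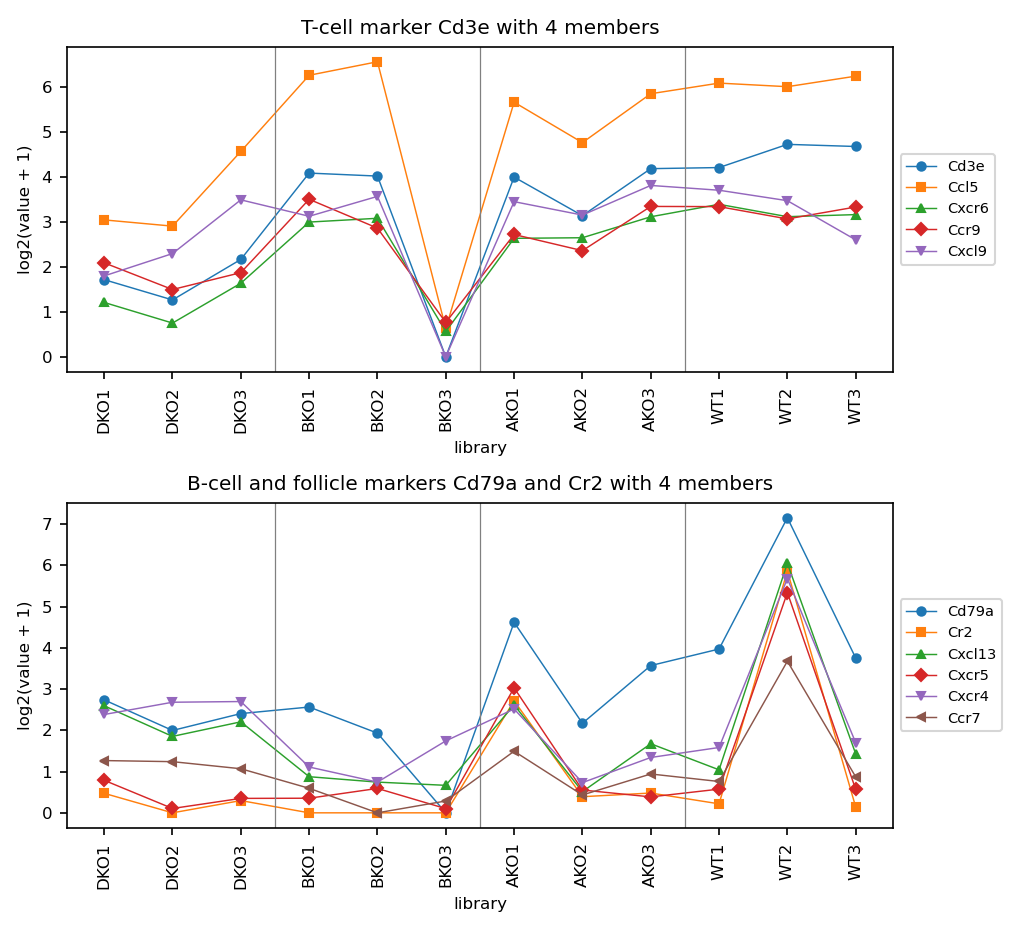
Lines join the 12 libraries, in the order DKO, BKO, AKO and WT, for log2(value + 1) of Cd3e with Ccl5, Cxcr6, Ccr9 and Cxcl9 (upper panel) and of Cd79a and Cr2 with Cxcl13, Cxcr5, Cxcr4 and Ccr7 (lower panel). In the upper panel all 5 genes drop in the third BKO library, and all but Cxcl9 sit low in every DKO library. Cxcl9 lies inside the WT range in the third DKO library. In the lower panel all 6 peak in the second WT library.

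Members of the lymphoid-follicle circuit peaked in the second WT library. Cxcl13, which follicle stroma makes to draw B cells, stood at 5.04, 2.61 and 3.61 fpm in DKO libraries, against 0.835, 0.676 and 0.587 fpm in BKO, 5.13, 0.428 and 2.19 fpm in AKO and 1.06, 65.2 and 1.695 fpm in WT. The second WT library was far above all others. Its receptor Cxcr5 stood at 0.727, 0.0757 and 0.274 fpm in DKO libraries, against 0.278, 0.507 and 0.0734 fpm in BKO, 7.17, 0.467 and 0.307 fpm in AKO and 0.489, 39.5 and 0.484 fpm in WT, and Cxcr4, the receptor of Cxcl12, at 4.22, 5.41 and 5.49 fpm in DKO libraries, against 1.16, 0.676 and 2.35 fpm in BKO, 4.73, 0.661 and 1.53 fpm in AKO and 1.998, 50.2 and 2.25 fpm in WT. Ccr6, the receptor of Ccl20 on B cells, reached 14.6 fpm in the second WT library and at most 1.78 fpm elsewhere. Ccr7, which guides lymphocytes along Ccl19 and Ccl21, reached 11.8 fpm in the second WT library and at most 1.82 fpm elsewhere, and its ligand Ccl19 reached 5.41 fpm there and at most 0.313 fpm elsewhere. B-cell markers summed to 7.798 to 12.2 fpm in DKO, 3.23 to 9.88 fpm in BKO, 8.29 to 80.2 fpm in AKO and 21.3 to 506 fpm in WT, and the highest WT and AKO sums are those of the second WT and the first AKO library. Cr2, a follicular dendritic and B-cell receptor named after its values were seen, stood at 57.1 fpm in the second WT library. Of this circuit limma called no member in DKO against WT. Between DKO and BKO, Cxcl13, Cxcr4 and Ccr7 did not overlap and were higher in DKO, though limma called none over all 12 libraries. Without the second WT library limma called all of them there, with adjusted p of 0.0419, 0.0389 and 0.0371. Ccr6, which was under its filter, was called lower by edgeR, with a log2 change of -4.60 and an adjusted p of 0.0430, against a WT mean that rests on the second WT library. The part of a lymphoid follicle in that library was not tested.

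Cxcl12, a stromal chemokine, stood at 11.3, 12.3 and 9.61 fpm in DKO libraries, against 13.3, 6.19 and 2.02 fpm in BKO, 15.4, 11.1 and 18.8 fpm in AKO and 11.7, 21.4 and 13.01 fpm in WT. DKO overlapped every group, and the log2 change against WT was -0.40 (SE 0.46, adjusted p = 0.525). Without both the third BKO and the second WT library, 19 members were called in DKO against WT, Ccl5, Ccr9 and Cxcr3 among them. Over all genes, 5459 of 13613 were called in that fit.

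Ccl21 is the lymphatic ligand of Ccr7 and is present in near-identical gene copies, so the split of reads between Ccl21a, Ccl21b and Ccl21c is uncertain. Ccl21a stood at 11.2, 12.2 and 16.7 fpm in DKO libraries, against 4.68, 4.67 and 0.991 fpm in BKO, 25.9, 18.8 and 26.4 fpm in AKO and 9.42, 16.1 and 10.8 fpm in WT. Ccl21b stood at 21.5, 13.2 and 16.01 fpm in DKO libraries, against 8.81, 8.78 and 1.505 fpm in BKO, 26.5, 16.1 and 25.4 fpm in AKO and 9.38, 26.1 and 20.6 fpm in WT. In both, the BKO libraries were the lowest, and the AKO libraries of Ccl21a were the highest. Ccl21a had a log2 change of 0.14 (SE 0.38, adjusted p = 0.789) against WT and 1.82 (SE 0.38, adjusted p = 0.00754) against BKO. Ccl21c, at 1.600, 0.871 and 1.098 fpm in DKO libraries, against 0.510, 0.619 and 0.183 fpm in BKO, 1.16, 0.934 and 1.58 fpm in AKO and 0.815, 1.06 and 1.07 fpm in WT, differed from BKO by 0.61 (SE 0.19, adjusted p = 0.0418) on the log2 scale, a call held when 2 of the 12 libraries were left out in turn and lost for each of the others (adjusted p up to 0.135), and also lost at a pseudocount of 5, with quantile scaling, with a replicate block and with edgeR without a filter (adjusted p up to 0.146). In BKO against WT the log2 change of Ccl21a was -1.68 (SE 0.38, adjusted p = 0.287), with a DESeq2 adjusted p of 0.0150.

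Ccl22 and Ccl17, which dendritic cells make to draw Ccr4-bearing T cells, lie on either side of Cx3cl1 on chromosome 8. Ccl22 stood at 1.503, 2.95 and 2.15 fpm in DKO libraries, against 0.603, 0.338 and 0.147 fpm in BKO, 2.32, 4.75 and 3.03 fpm in AKO and 2.45, 5.16 and 2.84 fpm in WT. All 3 BKO libraries were below the other 9. Its log2 change was 1.22 (SE 0.28, adjusted p = 0.0124) in DKO against BKO and -0.46 (SE 0.28, adjusted p = 0.230) in DKO against WT, and the call against BKO was lost without the second DKO library (adjusted p = 0.0532). In BKO against WT it was -1.68 (SE 0.28, adjusted p = 0.174) by limma, with a DESeq2 adjusted p of 7.28e-06. Ccl17 ranged from 1.02 to 1.33 fpm in DKO, 0.278 to 0.624 fpm in BKO, 0.351 to 1.52 fpm in AKO and 0.245 to 0.588 fpm in WT, with a log2 change against WT of 0.63 (SE 0.24, adjusted p = 0.0641). Ccl4 ranged from 0.582 to 4.73 fpm in DKO and from 1.17 to 1.31 fpm in WT, and was not called.

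Of the 4 atypical receptors, Ackr1 and Ackr3 rose in DKO against WT, and limma called neither Ackr2 nor Ackr4. Ackr1, which carries chemokines across the wall of venules and is also found on red cells, stood at 2.81, 4.202 and 3.34 fpm in DKO libraries, against 0.928, 0.563 and 1.43 fpm in BKO, 1.28, 0.817 and 1.49 fpm in AKO and 1.18, 0.878 and 1.42 fpm in WT. No other library reached the lowest DKO library. The log2 change was 1.04 (SE 0.21, adjusted p = 0.00506) against WT, 1.18 (SE 0.21, adjusted p = 0.00428) against BKO and 1.02 (SE 0.21, adjusted p = 0.00537) against AKO. Ackr3, a scavenger of Cxcl12, stood at 8.196, 9.12 and 6.91 fpm in DKO libraries, against 4.36, 2.93 and 2.64 fpm in BKO, 5.16, 4.51 and 3.64 fpm in AKO and 4.403, 3.15 and 4.19 fpm in WT. Again all DKO libraries were above the other 9, and the log2 change was 0.89 (SE 0.20, adjusted p = 0.00755) against WT, 1.09 (SE 0.20, adjusted p = 0.00451) against BKO and 0.74 (SE 0.20, adjusted p = 0.0167) against AKO. The last call was lost without the third AKO or the second DKO library (adjusted p up to 0.0656).

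Ackr4, which removes Ccl19, Ccl21 and Ccl25, stood at 13.7, 3.79 and 6.27 fpm in DKO libraries, against 2.55, 2.42 and 3.45 fpm in BKO, 3.57, 3.73 and 3.16 fpm in AKO and 3.71, 3.15 and 4.01 fpm in WT. The first DKO library was the highest and the second lay inside the WT range. The log2 change of the gene was 0.79 (SE 0.32, adjusted p = 0.0840) against WT, called without the second DKO library (adjusted p = 0.0193), by edgeR (adjusted p = 0.0476) and by DESeq2 (adjusted p = 0.0249). Against BKO the log2 change of Ackr4 was 1.08 (SE 0.32, adjusted p = 0.0355), a call lost without the first or the third WT, the first or the third AKO, the first or second BKO or the first or the third DKO library, with an adjusted p of up to 0.103, with quantile scaling, and with only the groups compared (adjusted p up to 0.149). Ackr2, a scavenger of inflammatory CC chemokines, stayed between 0.371 and 1.74 fpm and was not called by limma. In DKO against BKO, where all DKO libraries lay above the BKO libraries, it had an adjusted p of 0.0551 by limma, 0.0466 by edgeR and 0.0360 by DESeq2. Markers of blood endothelium summed to 51.9 to 87.5 fpm in DKO, 23.8 to 39.6 fpm in BKO, 47.8 to 55.7 fpm in AKO and 42.1 to 54.6 fpm in WT, with 1 of 7 called higher in DKO against WT, and those of lymphatic endothelium to 33.99 to 48.1 fpm in DKO, 16.7 to 25.2 fpm in BKO, 31.4 to 38.1 fpm in AKO and 19.7 to 29.8 fpm in WT, with 2 of 4 called higher. The part of vessel cells in these values was not tested.

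**Figure D5:**
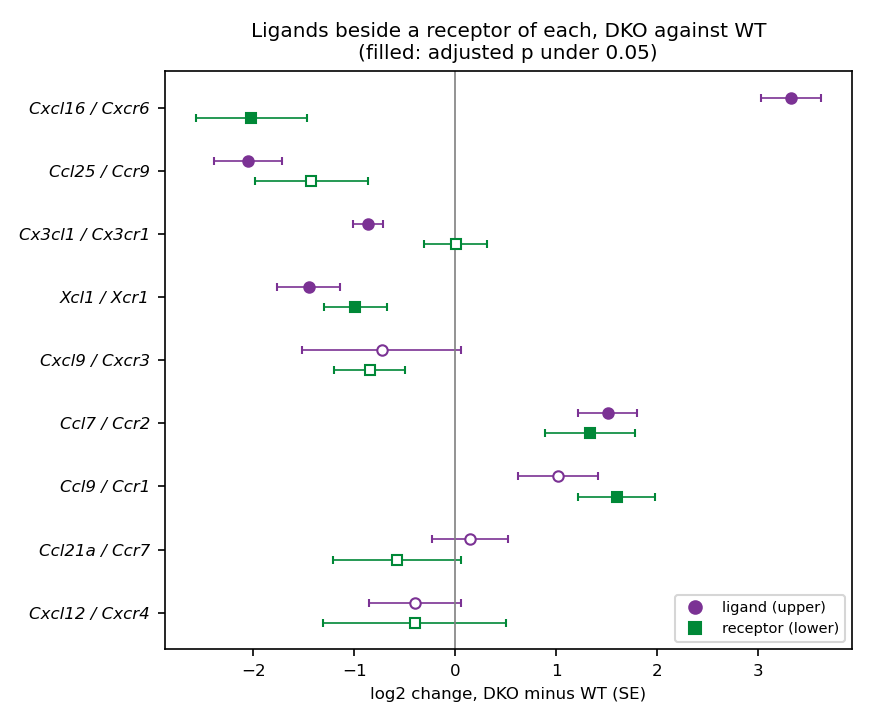
For 9 ligands (circles) each is set above one receptor of it (squares), with the log2 change in DKO against WT on the log2(value + 1) scale and its SE, filled where the adjusted p is under 0.05. Cxcl16 lies at 3.32 and Cxcr6 at -2.02, the only pair with both called in opposite directions, while Xcl1 with Xcr1 (both lower) and Ccl7 with Ccr2 (both higher) moved alike.

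The comparisons of DKO with the single losses share the DKO libraries with the comparison above. In DKO against AKO, 10 members were higher and 4 lower, 35.9% of those tested against 32.2% of all genes, with medians of 0.24 for the members and 0.01 for all genes tested. That of the members was 0.07 without the second AKO library and -0.00 without the third DKO library. There edgeR called 15 of 48 members, beside 28.9% of all genes, and DESeq2 called 21 of 50, beside 32.2%. In DKO against BKO, 15 were higher and 2 lower, 43.6% against 23% of all genes, with medians of 0.94 for the members and 0.00 for all genes tested. There edgeR called 20 of 48 members, beside 20.4% of all genes, and DESeq2 called 27 of 50, beside 25.7%. Of all genes, 11% were higher and 12% lower in that comparison. The members called against AKO were Cxcl16, Cxcl1, Ccl8, Cxcl14, Ccl11, Ackr1, Ccr1, Ccl7, Ackr3 and Ccr2, higher, and Ccl25, Cx3cl1, Xcl1 and Cxcr6, lower. Those called against BKO included Cxcl1, Cxcl14, Ccl11, Cxcl16, Ccl8, Ackr1, Ackr3, Ccl7, Ccr2, Ccl21a, Ccl22, Ackr4, Ccr1 and Ccl21c, higher, and Cx3cl1 and Ccl25, lower. Without the second or the third DKO library, 11 members were called in DKO against BKO. Over all genes, 1797 of 13549 and 2163 of 13559 were called in these fits. With only the DKO and BKO libraries fitted, the calls of Ccl25, Cx3cl1, Ccl7 and Ccl21a were lost (adjusted p up to 0.0581).

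For the single losses, limma called no member. In AKO against WT, 2 members had an unadjusted p under 0.05, 5.13% of those tested against 0.995% of all genes, Ccl21a at 0.93 and Ccl20 at -0.93 on the log2 scale, and edgeR and DESeq2 also called 0, beside 0.00675% and 0.0166% of all genes they tested. In BKO against WT, 12 members had an unadjusted p under 0.05, 30.8% of those tested against 10.7% of all genes, 34 of 39 had a negative log2 change, and the median was -0.47 over the members and 0.00 over all genes tested. Without the third BKO library the median over the members was -0.31, and without that and the second WT library it was -0.24. There 0.0366% of all genes were called lower by limma. edgeR called 0 of 48 members, beside 0.0337% of all genes, and DESeq2 called 7 of 50, beside 1.56%. The 7 were Ccl20, Ccl21a, Ccl22, Ccr10, Ccr7 and Cxcl13, lower, and Cxcl16, higher. Ccr7 and Cxcl13 are members whose WT mean rests on the second WT library.

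The interaction, DKO minus AKO minus BKO plus WT on the log2 scale, asks whether the change with both losses differs from the sum of the single changes. It was called for 5 of 39 members, all positive, which is 12.8% of them against 3.96% of all genes tested, 2.08% positive and 1.88% negative. edgeR called 2 of 48 members, beside 2.37% of all genes, and DESeq2 called 14 of 45, beside 12.2%. The 5 members called by limma were Cxcl1, Cxcl16, Ccl8, Ccl11 and Cxcl14, with interactions of 1.75, 2.37, 1.66, 2.39 and 1.36. Of these, Cxcl1 passed the filter through its DKO libraries alone. The number depended on single libraries: 15 members were called without the third BKO library and 1 to 3 without any other 1 library. Of the 15, 10 were positive and 5 negative. Calls over all genes moved too, from 541 of 13675 to 4181 of 13653 without the third BKO library and 94 to 239 without any other.

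Other genes of chemokine biology were taken from 5 lists, with members of the family removed, and read in DKO against WT beside the median of -0.01 over all genes tested. Of all genes tested, 31.8% were called there, 14.6% higher and 17.2% lower. The genes named are those called with the smallest p in each list. The machinery of chemokine receptor signalling, with 30 genes tested, had 1 higher and 1 lower and a median log2 change of -0.12. Rgs1, which shortens G protein signals, averaged 23.1 ± 6.53 fpm in DKO and 8.47 ± 1.57 fpm in WT, and Plcb3, a phospholipase below the receptors, 415 ± 50.5 fpm in DKO and 716 ± 43.9 fpm in WT. Their log2 changes were 1.32 (SE 0.38, adjusted p = 0.0239) and -0.79 (SE 0.13, adjusted p = 0.00186).

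Of 18 tested genes for related attractants, their receptors and their processing, 8 were higher and 4 lower, with a median of 0.60. Sphk1, which makes sphingosine 1-phosphate, had a log2 change of 2.40 (SE 0.24, adjusted p = 0.000193). Ch25h, which makes the precursor of an oxysterol attractant, had 1.45 (SE 0.23, adjusted p = 0.00173). The complement C5a receptor C5ar1 had 1.56 (SE 0.25, adjusted p = 0.00179). Dpp4, a brush-border peptidase that trims chemokines, averaged 209 ± 19.7 fpm in DKO and 884 ± 56.96 fpm in WT, a log2 change of -2.08 (SE 0.37, adjusted p = 0.00280).

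Among 27 tested genes of cytokines and the NF-kappaB route, 8 were higher and 3 lower, with a median of 0.16. The list also holds inhibitors of that route, such as Nfkbia and Tnfaip3, so these counts do not measure induction. Il33 had a log2 change of 1.48 (SE 0.19, adjusted p = 0.000614), Tlr4 one of 1.56 (SE 0.20, adjusted p = 0.000653), Il1a one of 1.501 (SE 0.24, adjusted p = 0.00173) and Tnf one of 1.75 (SE 0.28, adjusted p = 0.00181). Tnf averaged 6.88 ± 2.81 fpm in DKO and 1.29 ± 0.629 fpm in WT. Among 15 tested genes of the interferon route, 7 were lower and none higher, with a median of -0.83. Irf8 averaged 40.3 ± 4.696 fpm in DKO and 175 ± 9.11 fpm in WT, a log2 change of -2.10 (SE 0.30, adjusted p = 0.00108). Stat2 had one of -0.88 (SE 0.24, adjusted p = 0.0184) and Il12rb2 one of -0.61 (SE 0.18, adjusted p = 0.0239).

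Of 17 tested adhesion and gut-homing genes, 3 were higher and 1 lower, with a median of -0.45. Cd34 had a log2 change of 1.87 (SE 0.34, adjusted p = 0.00291) and P-selectin, Selp, one of 1.45 (SE 0.31, adjusted p = 0.00684). The retinoic-acid enzymes Aldh1a2 and Aldh1a1 went in opposite directions, with log2 changes of 1.75 (SE 0.22, adjusted p = 0.000606) and -2.09 (SE 0.36, adjusted p = 0.00231).

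The remaining members were scarce. Of the 22 members under the filter, Ccl26, Ccl28, Cxcl15 and Cxcr1 had 0 reads in all 12 libraries, for which 3 reads allow at most 0.0939 to 0.169 fpm per library, counting error only. Ccl27b, Ccr8 and Cxcl17 stayed at or under 0.256 fpm. Ccl27a, which shares sequence with Ccl27b, ranged from 0.454 to 1.24 fpm in DKO, 0.282 to 0.477 fpm in BKO, 0.439 to 0.782 fpm in AKO and 0.652 to 1.07 fpm in WT, with every BKO library below the WT libraries. Ccr4, the receptor for Ccl17 and Ccl22, reached 2.27 fpm in the second WT library and at most 0.745 fpm elsewhere. Ccl3, a macrophage attractant, stood at 0.582, 1.74 and 1.65 fpm in DKO libraries, against 0.371, 0.619 and 0.514 fpm in BKO, 0.469, 0.350 and 0.614 fpm in AKO and 0.489, 0.549 and 0.415 fpm in WT, with a DESeq2 adjusted p of 0.0255 in DKO against WT.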

How the data were processed

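The deposited table held 23988 genes in 12 libraries, with 0 columns of other samples. Its values are a signal that the authors made by dividing fragment counts by a size factor per library, as the table's own name (fpm) and its values show: all values were whole multiples of 1 step per library, within 0.001 reads, and 100% came out whole. The submitters' processing notes name FastQC 0.11.3 for read quality, Trimmomatic 0.36 for trimming, DESeq2 with no version, and mm9 as the build. Which counter and annotation were used, and whether genes were filtered, is not given in the sources used here. Per the labels' protocols, the libraries came from the TruSeq RNA kit v2, which does not mark strand, so overlapping antisense reads cannot be told apart.

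Library totals were 19.2 M to 29.8 M reads, and counting error alone limits members near 1 fpm. The planned test assumed normalized values, so it was kept: limma 3.58.1 (R 4.3.3) with a trended prior on log2(value + 1), 1 coefficient per group, all 12 libraries sharing 1 spread, two-sided, Benjamini-Hochberg adjusted over 13675 genes with at least 1 fpm in at least 3 libraries, called at an adjusted p under 0.05. The count tests on recovered reads were alternatives. edgeR 4.0.16 called 4145 of 14824 genes (28%) and DESeq2 1.42.0 called 5165 of 15612 (33.1%) in DKO against WT, and 20 of 48 and 24 of 49 members. Other alternatives were pseudocounts, filters, scalings, a replicate block, only the groups compared, and leaving out each library. The limma, edgeR and DESeq2 fits were run on simulated counts with known changes in the DKO libraries, scored in DKO against WT. Calls of limma in AKO against WT were also counted. The changed genes had a mean of at least 5 fpm, so changes in members near 1 fpm were not covered. Nor were the interaction, the left-out fits, the replicate block, the lists or the promoter windows.

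Members called in any comparison or with a group mean of at least 5 fpm were to be given in every library. From each pathway list up to 4 called genes with the smallest p were named, and from each cell type list up to 2 with the highest mean could be. Epx, Mpo and Elane had no reads and were named outside that rule. Members, lists and ligand and receptor pairs were chosen with earlier results of these data known. Promoter windows are RefSeq's on GRCm38.p6, which is not the submitters' build, and besides these windows only gene order was taken from RefSeq. The values of 1 tested member and 1 gene of the interferon list are not reported here, and both stay in the counts, medians and percentages.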

Additional observations from a re-analysis of the deposited data

Results flagged for a closer look

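For 5 members the effect of losing both genes differed from the sum of the single effects by a test of the difference itself, the interaction in limma over all 12 libraries. On the log2 scale it was 2.39 for Ccl11 (adjusted p = 0.0359), 2.37 for Cxcl16 (adjusted p = 0.0189), 1.75 for Cxcl1 (adjusted p = 0.0157), 1.66 for Ccl8 (adjusted p = 0.031) and 1.36 for Cxcl14 (adjusted p = 0.0411). Each was higher in 3 of 3 DKO libraries than in every other library. The members were picked by the interaction on these same values, so this separation adds no further support. With edgeR the adjusted p was 0.0311 for Cxcl16, 0.0385 for Ccl8, 0.0501 for Cxcl14, 0.0808 for Ccl11 and 0.0986 for Cxcl1. When 1 library was left out in turn, Cxcl1 kept its call in 9 of the 9 fits in which it passed the filter, Cxcl16 in 8 of 12, Cxcl14 in 3 of 12, and Ccl11 and Ccl8 in 2 of 12 each. Cxcl1 passed the filter through its DKO libraries alone and was not tested when any of them was left out. Its 9 fits therefore did not test its DKO values, and its count cannot be set against the others.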

How the results depend on the processing

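No member's called change turned its direction under any alternative run. In DKO against WT, Ackr1, Ackr3, Ccl11, Ccl25, Ccl7, Ccl8, Ccr1, Cx3cl1, Cxcl14, Cxcl16 and Xcl1 kept their calls under every alternative and every left-out library in which they were tested, and Cxcl1 lost its call with edgeR without a filter (adjusted p = 0.0515). Ccl7 and Cxcl1 dropped out of the test whenever a DKO library was left out, so the left-out fits did not test their DKO values. A filter of at least 5 fpm in 3 libraries, which tests fewer members, left 9 members called against WT and 9 against AKO in the DKO comparisons, 10 against BKO and 3 in the interaction. Of the 11134 genes tested with that filter, 3814, 3960, 2662 and 442 were called, in the same order. DESeq2 called 7 of 50 members in BKO against WT, 27 of 50 in DKO against BKO and 14 of 45 for the interaction. In the interaction edgeR called 2 of 48 members, or 3 without a filter, where it called 392 of 18200 genes. Fitting only the DKO and BKO libraries left 11 called between them, beside 753 of 13192 genes. Without both the third BKO and the second WT library, DKO against BKO had 26 calls and the interaction 12, beside 6193 and 3428 of 13613 genes. Leaving out 1 library at a time gave 11 to 23 calls in DKO against BKO, 10 to 19 against AKO, 11 to 20 against WT, 1 to 15 for the interaction, and 0 for either single loss. Over the 13538 to 13654 genes tested, these fits called 1631 to 6224 in DKO against BKO and 2782 to 6203 against AKO. They called 2691 to 6153 against WT and 94 to 4181 for the interaction. The cause was not tested. Equal replicate numbers did not pair the libraries: deviations from group means correlated between same-numbered libraries at -0.30 to 0.18. With a replicate block DKO had 16 members called against BKO, 13 against AKO and 15 against WT, the interaction had 4, and either single loss had 0. Over all 13675 genes the same fit called 2887 against BKO, 4109 against AKO, 4048 against WT and 329 in the interaction. Depth limits members near the value of 1 read, of which 4 had no read in any library.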
